A study of Mus musculus with 24 samples.

Results

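The naive pluripotency network genes read here are 10 genes, Klf2, Klf4, Klf5, Esrrb, Nr0b1, Nr5a2, Tfcp2l1, Tbx3, Zfp42 and Tcl1, taken by symbol from a table of 54242 gene symbols. All 10 were in the table, and all 10 were among the 16447 genes tested, those whose log2(TPM + 1) averaged 0.5 or more. TPM is a measure of transcript abundance corrected for transcript length and scaled to the same sum in each library. RNA-seq was run on 24 libraries of CGR8, a mouse embryonic stem cell line, with 3 independent samples in each of 8 groups. Cells were transfected with a pool of non-targeting siRNAs (siControl, here si-CTL) or of siRNAs against Rsl24d1 (siRSL24D1, here si-Rsl24d1), each without rescue ("nores") or with doxycycline-induced ectopic RSL24D1 ("RESCUE"). RSL24D1 is a nucleolar factor that takes part in the assembly of the large ribosomal subunit. The 12 ESC libraries (day 0) came from cells kept in serum with LIF, and the 12 DIF libraries (day 4) from cells treated for 4 days with 10 nM retinoic acid (RA) after transfection. The labels give an empty vector for all cells without doxycycline and the RSL24D1 vector for all cells with it. By the labels, the rescue groups thus differ from the others in the vector and the drug together. The study itself describes an inducible rescue line, cultured without or with doxycycline in its ribosome assays, and which holds for these libraries is unclear. The labels also give both 72 h and 48 h for day 0 collection, and they differ from the methods on the library kit (poly-A or total RNA) and on LIF during RA treatment. All groups come from 1 cell line, and each value is from bulk RNA, in which fewer cells expressing a gene and less RNA per cell cannot be told apart.

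Naive pluripotency is the state of the epiblast before implantation, which mouse embryonic stem cells hold in culture. LIF acts through STAT3 on Klf4, Tfcp2l1 and other factors, and the KLF factors, the orphan nuclear receptors Esrrb, Nr0b1 and Nr5a2, Tfcp2l1 and Tbx3 bind with Oct4, Sox2 and Nanog at shared enhancers and sustain each other's expression. When cells leave the naive state towards the formative and post-implantation states, these factors are turned down, while Fgf5, Otx2 and Pou3f1 rise. RA commonly speeds the exit from pluripotency.

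The level of Rsl24d1 served as the check of the labels. At day 0 it read 7.22, 7.14 and 7.10 log2(TPM + 1) in the si-CTL libraries without rescue and 5.23, 5.28 and 5.07 in the si-Rsl24d1 libraries without rescue, a difference of -1.95 ± 0.07 (SE, n = 3 per group; limma adjusted p = 3.24e-14). With rescue, the si-Rsl24d1 libraries read 6.70, 6.60 and 6.94, between the 2 unrescued groups and at -0.50 against si-CTL with rescue (adjusted p = 2.19e-05). The si-CTL libraries with rescue read 7.31, 7.24 and 7.21 and overlapped those without, so the rescue label is hardly seen in control cells at day 0. Each symbol has 1 value per library, so endogenous and ectopic transcripts could not be told apart. At day 4 without rescue, the libraries labelled siRSL24D1 read 6.50, 6.61 and 6.65 and those labelled siControl 6.60, 6.67 and 6.61. The depletion seen at day 0 was thus not present in the day 4 libraries (difference -0.04, adjusted p = 0.66), and si-Rsl24d1 at day 4 means cells labelled as transfected before the RA treatment. With rescue at day 4, Rsl24d1 read 6.99, 6.84 and 6.85 in si-CTL and 7.07, 7.05 and 7.00 in si-Rsl24d1 libraries. All of these lay above the unrescued day 4 libraries. The number of reads per library is not kept in these values, so the depth is unknown and counting intervals could not be computed. The libraries also differed in how long and short transcripts compare. Each gene was set against its mean over all libraries. The median of genes with long coding transcripts (5028 bases or more) minus that of genes with short ones (1727 bases or fewer) was then taken. This difference ranged from -0.30 to -0.20 on the log2 scale in si-CTL at day 4 without rescue and from -0.10 to 0.27 in si-Rsl24d1 at day 4 without rescue. At day 0 without rescue it was -0.01 to 0.24 and 0.10 to 0.21. The longest coding transcripts of the members run from 1398 bases (Tcl1) to 9269 (Tfcp2l1), so values were also corrected for transcript length and GC content.

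The 10 genes were all expressed in every library, over a wide range of levels. Zfp42, which encodes the zinc finger protein REX1 and is the classic reporter of the naive state, was the highest member in all 8 groups, at 637 ± 10.7 TPM (SD, n = 3) in si-CTL at day 0 without rescue. It made up 45.9% to 55.8% of the summed TPM of the members over the 24 libraries. The zinc finger factor Klf2 followed with 230 TPM in that group, the nuclear receptor Esrrb with 154, and the co-repressor Nr0b1 (DAX1), the zinc finger factor Klf5 and Tcl1, a co-activator of AKT, with 74.6, 74.4 and 63.3 TPM. Klf4, Tfcp2l1 and Nr5a2 lay between 24.6 and 26.6 TPM, and Tbx3, a T-box factor, was the lowest at 6.98 TPM in that group and the lowest member in every group. In this order Nr0b1 and Klf5 overlapped between libraries, as did Klf4 with Tfcp2l1 and Tfcp2l1 with Nr5a2, whereas all other neighbours lay apart. By mean level, 1.58% of the genes tested were above Zfp42 and 59.1% above Tbx3.

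In the gencode annotation of GRCm38, the KLF genes lie with Klf2 at chr8:72319033-72321656 (plus), Klf4 at chr4:55527143-55532466 (minus) and Klf5 at chr14:99298691-99315036 (plus), with the strand in parentheses. The nuclear receptor genes lie with Esrrb at chr12:86361117-86521628 (plus), Nr0b1 at chrX:86191764-86195947 (plus) and Nr5a2 at chr1:136842571-136960448 (minus). The remaining members are Tfcp2l1 at chr1:118627945-118685168 (plus), Tbx3 at chr5:119670669-119684724 (plus), Zfp42 at chr8:43295063-43306980 (minus) and Tcl1 at chr12:105216750-105222793 (minus), and the values cover whole genes.

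Promoter sequences from RefSeq (GRCm38.p6, 250 bases before the annotated start) were found for 8 of the 10 genes, and not for Klf5 and Tbx3. Those of the 4 genes with the largest day 0 differences are shown, read 5′ to 3′ on the strand of the gene, without any bases that lie inside the gene in the gencode annotation. Capitals mark matches, on either strand, to 4 motifs: TTCNNNGAA (STAT), AAGGTCA (ESRRB), ATGCAAAT (POU octamer) and GGGNGNGGC (KLF).
Esrrb, chr12:86360867-86361116, plus strand: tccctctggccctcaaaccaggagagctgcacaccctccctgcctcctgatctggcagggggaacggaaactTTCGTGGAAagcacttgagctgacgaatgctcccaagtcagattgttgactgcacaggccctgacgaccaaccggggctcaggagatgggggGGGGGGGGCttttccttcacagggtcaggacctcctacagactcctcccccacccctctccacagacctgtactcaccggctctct
Zfp42, chr8:43307010-43307259, minus strand: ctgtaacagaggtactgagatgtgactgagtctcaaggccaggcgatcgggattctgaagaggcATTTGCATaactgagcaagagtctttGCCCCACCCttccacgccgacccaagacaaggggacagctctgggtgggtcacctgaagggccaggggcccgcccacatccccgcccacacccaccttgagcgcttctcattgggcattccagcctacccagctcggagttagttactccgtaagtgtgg
Tcl1, chr12:105222794-105222987, minus strand: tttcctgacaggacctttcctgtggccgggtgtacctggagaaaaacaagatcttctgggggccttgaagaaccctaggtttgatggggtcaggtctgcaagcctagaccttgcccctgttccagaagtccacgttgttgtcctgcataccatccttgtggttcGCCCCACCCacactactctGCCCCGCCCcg
Nr0b1, chrX:86191525-86191763, plus strand: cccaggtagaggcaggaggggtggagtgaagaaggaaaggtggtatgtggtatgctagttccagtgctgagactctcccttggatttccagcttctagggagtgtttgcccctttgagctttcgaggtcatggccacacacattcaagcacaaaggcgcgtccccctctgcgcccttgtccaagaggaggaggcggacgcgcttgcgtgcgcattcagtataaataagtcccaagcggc
The Esrrb window held a STAT match 178 bases and a KLF match 86 bases before the start. Zfp42 held an octamer 186 bases and a KLF match 160 bases before it, and Tcl1 held KLF matches at 86 and 67 bases. These distances run from the RefSeq start. For Tcl1 that start lies inside the gene in the gencode annotation, and the shown sequence of 194 bases ends before it. No match was found in these letters of Nr0b1. Over the 10 windows of the 8 genes, 6 held a KLF match, against 23.3% of 32807 windows of all genes, and 1 held a STAT match (7.02% of all), 1 an octamer (1.60%) and 0 an ESRRB match (4.08%). A match is a description of the sequence and not a binding site.

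At day 0 without rescue, all 10 genes were lower in si-Rsl24d1 than in si-CTL cells, and for each gene the 3 si-Rsl24d1 libraries lay below the 3 si-CTL libraries. The median difference over the members was -0.75 on the log2 scale, against -0.01 over all genes tested. A gene is called here when its adjusted p is below 0.01 and its change over 1.8-fold, which is 0.848 on the log2 scale, and 4 of the 10 were called lower, where 0.772% of the genes tested were. By adjusted p alone, 9 of 10 passed, where 16.1% of the genes tested fell, and libraries without overlap in this direction were found for 27.3% of the genes tested. Summed over the 10 genes, si-CTL cells had 1318 ± 44.3 TPM (SD, n = 3) and si-Rsl24d1 cells 709 ± 23.5 TPM.

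**Figure D1:**
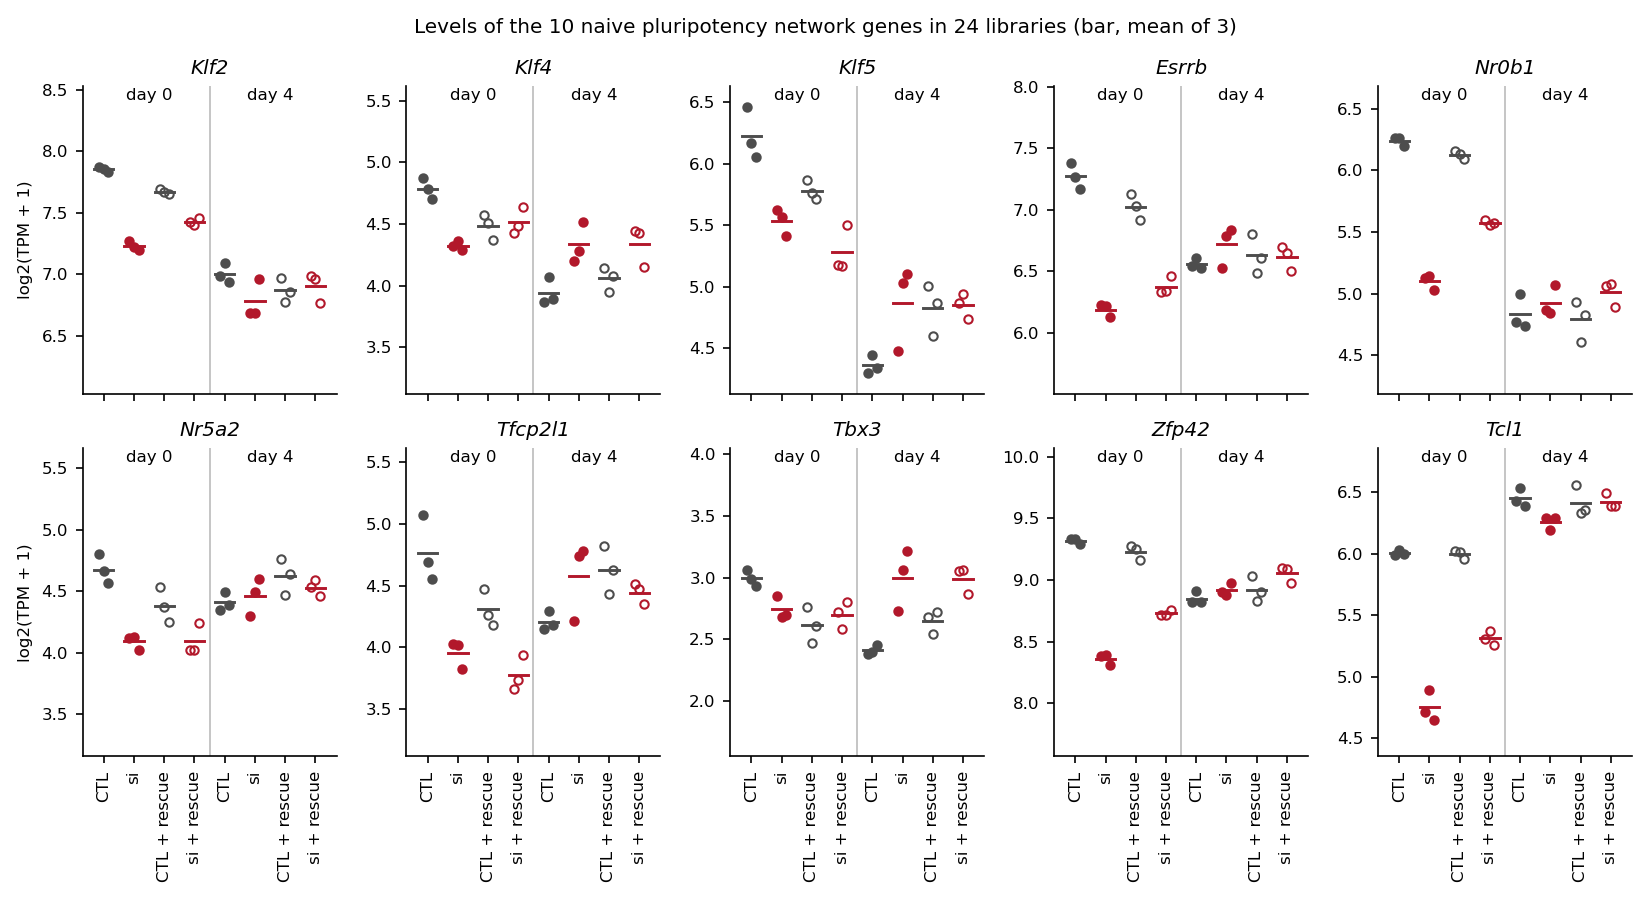
Level of each of the 10 genes, as log2(TPM + 1), in the 24 libraries: points are libraries, bars the mean of 3, grey si-CTL (CTL), red si-Rsl24d1 (si), filled without and open with rescue. At day 0 the filled red points lie below the filled grey points in every panel, and Tcl1 is the gene whose day 4 libraries lie above the day 0 libraries in all groups.

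The KLF factors keep the naive state when LIF or other signals are limiting, and can in part replace each other. Klf2 read 7.87, 7.86 and 7.83 in the si-CTL libraries and 7.27, 7.22 and 7.20 in the si-Rsl24d1 libraries. Klf4, a direct STAT3 target, read 4.87, 4.78 and 4.70 against 4.32, 4.36 and 4.29. Klf5 read 6.46, 6.17 and 6.05 against 5.62, 5.57 and 5.41. All 3 KLF genes thus fell past the adjusted p but under 1.8-fold, with -0.62 ± 0.07 for Klf2, -0.46 ± 0.09 for Klf4 and -0.69 ± 0.14 for Klf5 (SE; limma adjusted p = 2.14e-07, 0.000409 and 0.000508), and of these Klf5 varied most between the control libraries.

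Among the nuclear receptors, Esrrb, which binds many of the network's enhancers and lies downstream of GSK3 inhibition, read 7.38, 7.27 and 7.17 in si-CTL and 6.23, 6.22 and 6.13 in si-Rsl24d1 libraries. Nr0b1 read 6.26, 6.26 and 6.20 against 5.13, 5.14 and 5.03. Both were called, with differences of -1.09 ± 0.08 and -1.14 ± 0.08 (adjusted p = 2.67e-09 and 4.78e-10). Nr5a2 (LRH-1), which can activate Oct4, read 4.80, 4.66 and 4.57 against 4.12, 4.13 and 4.02, a smaller step of -0.58 ± 0.09 (adjusted p = 2.95e-05). In TPM, si-Rsl24d1 cells held 46.7% of the control level of Esrrb, 44.7% of Nr0b1 and 65.4% of Nr5a2.

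Tfcp2l1, a CP2-family factor downstream of STAT3, read 5.07, 4.69 and 4.55 against 4.03, 4.02 and 3.82, with a difference of -0.81 ± 0.14 (adjusted p = 0.000121) that lay just under the 1.8-fold threshold. Without si-CTL replicate 2 or 3 it was -0.85 and -0.92, and after correction for transcript length and GC content -0.88, and called. Tbx3 was the member with the smallest difference: it read 3.06, 2.99 and 2.93 against 2.85, 2.68 and 2.70, or -0.25 ± 0.10, which did not pass (adjusted p = 0.0533). After the same correction the difference of Tbx3 was -0.30 and passed (adjusted p = 0.00125). Each of the other 9 genes also passed after that correction.

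The lowest adjusted p among the members were those of Tcl1 and Zfp42. Tcl1 read 5.99, 6.03 and 6.00 in si-CTL libraries and 4.71, 4.89 and 4.65 in si-Rsl24d1 libraries, a difference of -1.25 ± 0.06 (adjusted p = 3.21e-12). Zfp42 read 9.33, 9.33 and 9.29 against 8.38, 8.39 and 8.31, or -0.96 ± 0.05 (adjusted p = 4.04e-12). The spread between libraries of a group was small for both genes, and si-Rsl24d1 cells held 41.1% of the control TPM of Tcl1 and 51.5% of that of Zfp42. Zfp42 has a processed copy, Zfp42-ps1, which was listed at 116 TPM in si-CTL cells and at 60.7 TPM in si-Rsl24d1 cells. Reads of the 2 copies may not be separable, and with both summed the difference was -0.95 (adjusted p = 6.96e-12).

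**Figure D2:**
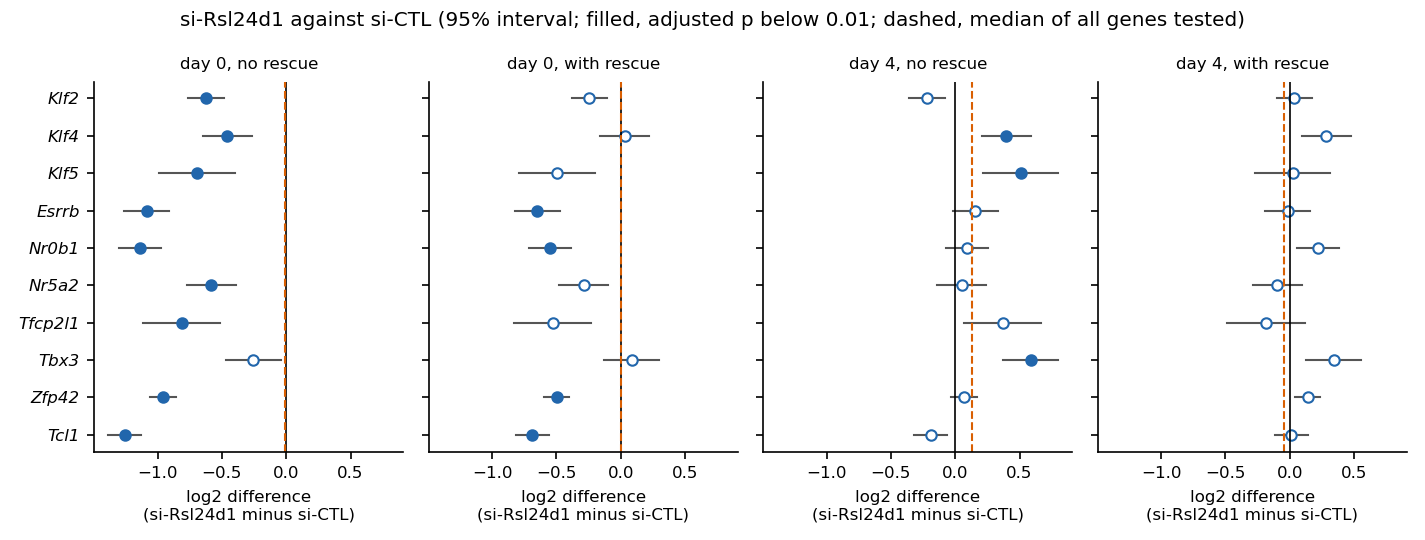
Difference between si-Rsl24d1 and si-CTL for each gene, on the log2 scale, with its 95% interval, for day 0 and day 4 without and with rescue; filled points have an adjusted p below 0.01 and the dashed line is the median of all genes tested. All points lie below 0 at day 0 without rescue, 8 of 10 at day 0 with rescue, and 2 of 10 at day 4 without rescue.

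With rescue at day 0, the differences between si-Rsl24d1 and si-CTL were smaller for every member, and 0 of 10 were called, where 0.188% of the genes tested were called lower. The median over the members was -0.50, against 0.00 over all genes. By limma's adjusted p alone, 4 genes passed, Tcl1 at -0.69 ± 0.06, Esrrb at -0.65 ± 0.08, Nr0b1 at -0.55 ± 0.08 and Zfp42 at -0.50 ± 0.05, where 5.64% of the genes tested fell, and 8 of 10 had an unadjusted p below 0.05. Klf2, Klf5, Tfcp2l1 and Nr5a2 lay between -0.24 and -0.53, with adjusted p between 0.0104 and 0.0269, and for these 4 genes too the si-Rsl24d1 libraries lay below all si-CTL libraries, as did 15.0% of the genes tested. All 4 passed after median of ratios scaling, which sets the median gene equal between libraries, and after the correction for length and GC content. Klf4 and Tbx3 showed no such step, with 0.03 (95% interval -0.16 to 0.22) and 0.09 (-0.13 to 0.30).

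The share of the day 0 difference left with rescue, the ratio of the 2 differences, was computed for each member. It was 39.1% for Klf2, 48.5% for Nr0b1, 49.4% for Nr5a2, 52.1% for Zfp42, 54.8% for Tcl1, 59.7% for Esrrb, 65.2% for Tfcp2l1 and 71.4% for Klf5. For Klf4 it was -6.62% and for Tbx3 -33.3%, since their differences with rescue had the opposite sign. The mean of the si-CTL libraries was lower with rescue for both, 4.49 against 4.78 for Klf4 and 2.62 against 3.00 for Tbx3. In si-Rsl24d1 cells Klf4 read 4.52 with rescue against 4.33 without, and Tbx3 2.70 against 2.74. These 2 shares thus do not stand for a full return in si-Rsl24d1 cells, and the unrescued difference of Tbx3 did not pass. For Klf5, Tfcp2l1 and Nr5a2 the si-Rsl24d1 mean was not higher with rescue, at 5.28 against 5.54, 3.78 against 3.96 and 4.09 in both. Their si-CTL means were lower with rescue, at 5.78 against 6.23, 4.31 against 4.77 and 4.38 against 4.67. Their shares thus do not stand for a return either. The median over the 9 genes whose difference passed without rescue was 52.1%, and it ranged from 51.6% to 54.2% under the other scalings and added constants. It counts Klf4, Klf5, Tfcp2l1 and Nr5a2, and the share against si-CTL without rescue was not computed. For Rsl24d1 itself the siRNA differences were -0.50 with rescue and -1.95 without.

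Whether the siRNA difference itself changed with rescue was tested by the interaction of siRNA and rescue. It was positive for all 10 genes, with a median of 0.41 against 0.02 over all genes, and passed for 3, where 0.906% of the genes tested passed in this direction. These were Nr0b1 at 0.59 ± 0.11 (limma adjusted p = 0.00357), Tcl1 at 0.57 ± 0.09 (adjusted p = 0.000652) and Zfp42 at 0.46 ± 0.07 (adjusted p = 0.00048). The call of Nr0b1 was lost without si-CTL replicate 2 (0.58, adjusted p = 0.0111), without si-Rsl24d1 replicate 3 (0.55, 0.0145), both unrescued, and without rescued si-Rsl24d1 replicate 1 (0.58, 0.0109). After the length and GC correction 6 genes passed, with Klf4 at 0.46, Esrrb at 0.42 and Nr5a2 at 0.32 added, and after median of ratios scaling Esrrb passed as well.

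Rescued and unrescued si-Rsl24d1 cells were then set side by side. Tcl1 read 5.31, 5.37 and 5.26 in the rescued libraries, Nr0b1 5.60, 5.56 and 5.57, and Zfp42 8.72, 8.72 and 8.76. All of these lay above the unrescued libraries and below the si-CTL libraries, and the 3 genes were higher with rescue by 0.56 ± 0.06, 0.48 ± 0.08 and 0.37 ± 0.05 (limma adjusted p = 3.61e-06, 0.000219 and 1.69e-05), where 3.06% of the genes tested were (9.55% without overlap in this direction). Klf5 read 5.18, 5.17 and 5.50 with rescue, and Tfcp2l1 3.66, 3.73 and 3.94. These 2 genes stood at -0.25 and -0.18 against the unrescued cells, without passing, and Nr5a2 at -0.00, while the rescued control of the 3 genes was at -0.45, -0.46 and -0.29 against the unrescued one. In that control, si-CTL with rescue, 10 of 10 members read lower than in si-CTL without rescue, by -0.01 (Tcl1) to -0.46 (Tfcp2l1), and 9 without overlap, as 37.6% of the genes tested. None of them passed limma's adjusted p (7 had an unadjusted p below 0.05), where 0.0122% of the genes tested did, and the median of all genes was -0.12. After median of ratios scaling, which moves that median to -0.01, 3 of them (Nr0b1, Zfp42 and Tcl1) had values above 0, at 0.04 to 0.14. With the same scaling, 6 genes were higher in rescued than in unrescued si-Rsl24d1 cells, adding Klf2 and Klf4 at 0.34 and 0.32 and Esrrb at 0.32. The length and GC correction also gave 6, with Klf4 at 0.31, Esrrb at 0.36 and Nr5a2 at 0.21 added.

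Over 4 days of RA, 8 of the 10 genes fell past the adjusted p in si-CTL cells without rescue, and Tcl1 rose. Klf5 fell furthest, from 6.46, 6.17 and 6.05 to 4.30, 4.45 and 4.34, which left 26.3% of its TPM. Nr0b1 fell from 6.26, 6.26 and 6.20 to 4.77, 5.00 and 4.74, and Klf2 from 7.87, 7.86 and 7.83 to 6.99, 7.09 and 6.94. These 3 were called, with differences of -1.86 ± 0.14, -1.41 ± 0.08 and -0.85 ± 0.07 (adjusted p = 5.13e-10, 5.36e-12 and 7.14e-10), where 8.24% of the genes tested were called lower and 36.7% passed by adjusted p alone. The value of Klf2 sat at the 1.8-fold threshold: it was not called without si-CTL replicate 1 or 2 of day 0 (-0.84, -0.85) or replicate 1 or 3 of day 4 (-0.84, -0.82), nor after median of ratios scaling or the length and GC correction (-0.72 each). Klf4, Esrrb, Tbx3, Tfcp2l1 and Zfp42 changed by -0.84 to -0.47. The adjusted p of Tfcp2l1 was 0.0177 without si-CTL replicate 1 of day 0. Nr5a2, at -0.26 ± 0.09, did not pass (adjusted p = 0.0143).

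Tcl1 went the other way, from 5.99, 6.03 and 6.00 to 6.43, 6.53 and 6.39, a rise of 0.44 ± 0.06 (adjusted p = 2.56e-06), where 24.1% of the genes tested rose by adjusted p. Its day 4 libraries had 137% of the day 0 TPM. In si-Rsl24d1 cells without rescue the same gene went from 4.71, 4.89 and 4.65 to 6.29, 6.19 and 6.29, a rise of 1.51 ± 0.06 (adjusted p = 4.53e-14), and it was the single member called, where 7.93% of the genes tested were called higher. Its neighbours of the Tcl1b family were listed at 2.02 TPM or below in every library.

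In si-Rsl24d1 cells without rescue, which began lower, the day 4 differences were more often above 0. Besides Tcl1, the genes that rose past the adjusted p were Tfcp2l1 at 0.62 ± 0.14, Zfp42 at 0.56 ± 0.05, Esrrb at 0.53 ± 0.08 and Nr5a2 at 0.37 ± 0.09, 5 of 10 in all, where 29.4% of the genes tested rose. Klf5 at -0.67 ± 0.14 and Klf2 at -0.45 ± 0.07 fell, where 26.4% fell. Klf4, Nr0b1 and Tbx3 did not pass, at 0.01, -0.18 and 0.26. Without day 4 si-Rsl24d1 replicate 1 Tbx3 was 0.40 and passed (adjusted p = 0.000957), and without replicate 3 Nr5a2 was 0.30 and did not (adjusted p = 0.0115). In a fit of these 6 libraries alone Klf5 and Tfcp2l1 did not pass either (adjusted p = 0.0109 and 0.0125). The median over the members was 0.31, against -0.65 in si-CTL cells.

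**Figure D3:**
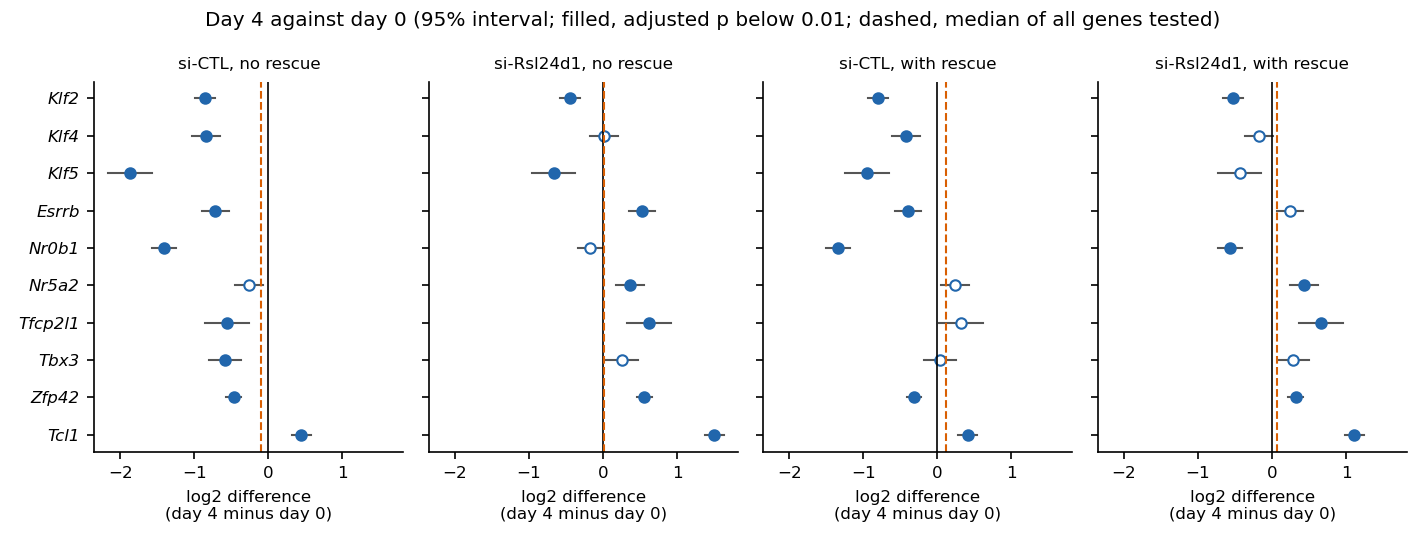
Difference between day 4 and day 0 for each gene, on the log2 scale, with its 95% interval, in the 4 combinations of siRNA and rescue; filled points have an adjusted p below 0.01 and the dashed line is the median of all genes tested. In si-CTL cells without rescue 9 points lie below 0 and Tcl1 above it, and in si-Rsl24d1 cells without rescue 7 lie above 0, Tcl1 furthest at 1.51.

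With rescue, Tcl1 again rose with day in both siRNA groups and Klf2 and Nr0b1 fell. In si-CTL cells with rescue, Nr0b1 at -1.34 ± 0.08 and Klf5 at -0.95 ± 0.14 were called, where 4.82% of the genes tested were called lower, and Klf2, Klf4, Esrrb and Zfp42 changed by -0.80 to -0.31 past the adjusted p alone, 6 of 10 in all, where 22.4% fell, while Tcl1 rose by 0.41, as 36.8% of the genes tested did. The call of Klf5 rested on day 4 si-CTL replicate 2 with rescue, without which it was -0.84. In si-Rsl24d1 cells with rescue, Tcl1 was called at 1.11 ± 0.06, where 9.34% were called higher. Tfcp2l1, Nr5a2 and Zfp42 rose by 0.67, 0.44 and 0.32, where 32.4% of the genes tested rose, and Nr0b1 and Klf2 fell by 0.57 and 0.52, where 25.8% fell. After the length and GC correction 9 members passed in place of 6 in these cells, with Esrrb at 0.27, Tbx3 at 0.28 and Klf5 at -0.57 added. With rescue the median of all genes was 0.12 for si-CTL and 0.06 for si-Rsl24d1, against -0.10 and 0.02 without.

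At day 4 without rescue, the members did not differ together between si-Rsl24d1 and si-CTL cells. The median over the members was 0.13, the same as the 0.13 over all genes tested, and 0 of 10 were called by limma (6 had an unadjusted p below 0.05). By adjusted p, Tbx3 at 0.59 ± 0.10, Klf5 at 0.51 ± 0.14 and Klf4 at 0.40 ± 0.09 were higher (adjusted p = 0.000187, 0.00667 and 0.00184), 3 of 10, where 24.9% of the genes tested were. Tbx3 read 2.38, 2.40 and 2.45 in si-CTL and 2.73, 3.06 and 3.22 in si-Rsl24d1 libraries. Klf5 read 4.30, 4.45 and 4.34 against 4.48, 5.03 and 5.10, and Klf4 3.87, 4.07 and 3.89 against 4.20, 4.28 and 4.52. The groups did not overlap for these 3 genes, as for 37.1% of the genes tested, and si-Rsl24d1 replicate 1 stood nearest to the controls for each. That library also has the lowest value of its group for long against short transcripts, at -0.10. The part of this in the result was not tested beyond the correction given next.

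These 3 differences changed with the treatment of the values. After median of ratios scaling Tbx3 was 0.44 and passed, Klf5 and Klf4 were 0.35 and 0.24 and did not, Klf2 and Tcl1 were lower at -0.39 and -0.36 and passed, and Esrrb, Nr0b1, Zfp42 and Nr5a2 had values below 0 in place of above it. With the length and GC correction Tbx3 and Klf4 passed at 0.34 and 0.26, Klf5 at 0.33 did not, and Klf2 and Nr5a2 were lower at -0.24 and -0.23. In a fit of these 6 libraries alone none of the 3 passed (adjusted p = 0.0217 for Tbx3, 0.0312 for Klf4 and 0.054 for Klf5). Leaving out any 1 of the 6 libraries other than si-Rsl24d1 replicate 1 put Klf5 above the threshold (0.39 to 0.55, adjusted p = 0.0122 to 0.0507), Klf4 was lost without si-CTL replicate 1 (0.36, 0.0117) or si-Rsl24d1 replicate 3 (0.30, 0.0177), and Tbx3 kept its adjusted p in all 6. Without si-Rsl24d1 replicate 1 Tfcp2l1 also passed (0.56, 0.00179), and without replicate 3 Klf2 did, at -0.31 (0.000696).

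**Figure D4:**
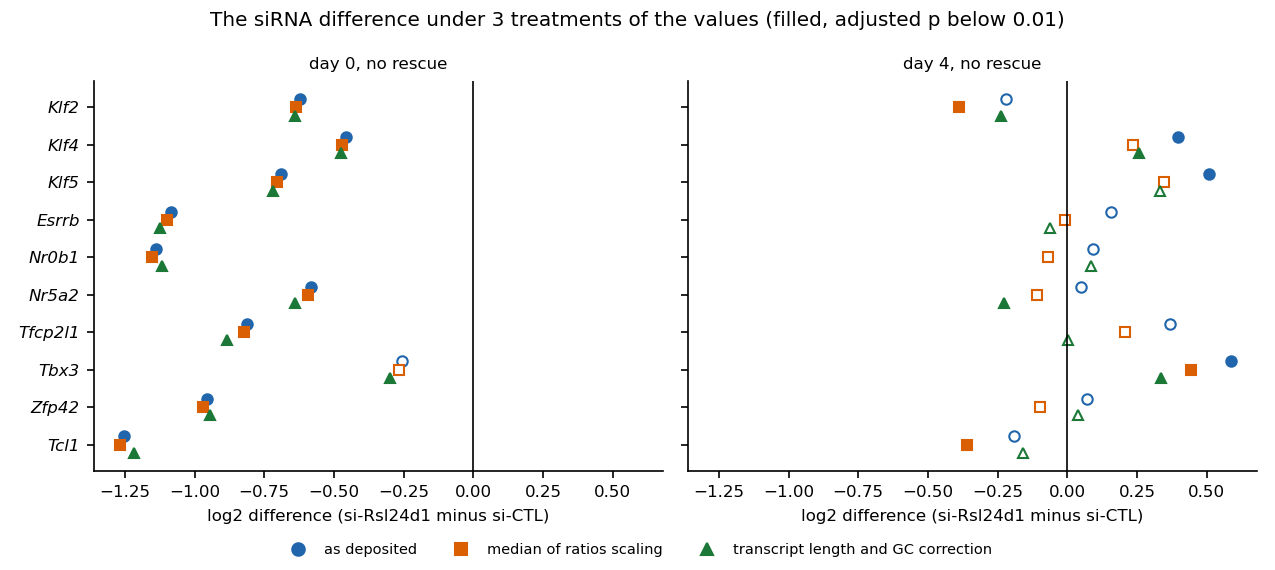
Difference between si-Rsl24d1 and si-CTL without rescue for each gene, on the log2 scale, from the values as deposited (circles), after median of ratios scaling (squares) and after correction for transcript length and GC content (triangles); filled symbols have an adjusted p below 0.01. At day 0 the 3 symbols of a gene lie together, whereas at day 4 they spread, for Tfcp2l1 from 0.37 to 0.00.

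With rescue at day 4, none of the members passed limma's adjusted p between si-Rsl24d1 and si-CTL cells (4 had an unadjusted p below 0.05), with differences from -0.18 for Tfcp2l1 to 0.34 for Tbx3 and a median of 0.03 against -0.04 over all genes, and 2.33% of the genes tested passed higher and 3.53% lower. Tbx3 read 2.68, 2.54 and 2.72 in si-CTL and 3.05, 3.06 and 2.87 in si-Rsl24d1 cells with rescue. Klf4 read 4.14, 3.95 and 4.08 against 4.44, 4.43 and 4.15. Libraries of the 2 groups did not overlap for these genes, as for 10.8% of the genes tested, and both passed after either scaling or correction, at 0.38 for Tbx3 and 0.32 for Klf4. Zfp42 passed after the length and GC correction as well, at 0.18. Between rescued and unrescued cells at day 4, none of the members passed, in si-Rsl24d1 cells (-0.14 to 0.17, 2 with an unadjusted p below 0.05) or in si-CTL cells (-0.13 to 0.46, 4 with an unadjusted p below 0.05). After median of ratios scaling Zfp42 passed in si-Rsl24d1 cells at 0.21 and Klf2 in si-CTL cells at -0.27. In these comparisons 0.936% and 8.85% of the genes tested passed higher and 4.23% and 1.34% lower.

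The difference of the siRNA effect between the days was tested by the interaction of siRNA and day. Without rescue it was above 0 and passed for all 10 members, where 22.1% of the genes tested passed in this direction, with a median of 1.04 against 0.14 over all genes. The values ran from 0.40 ± 0.09 for Klf2 to 1.24 ± 0.12 for Esrrb, with Nr0b1 at 1.23 ± 0.11 and Klf5 at 1.20 ± 0.20. After median of ratios scaling 9 of 10 passed, and Klf2 was 0.25 (adjusted p = 0.0349). With rescue the interaction passed for 4 members, where 3.13% of the genes tested passed, namely Nr0b1 at 0.77 ± 0.11, Tcl1 at 0.70 ± 0.09, Zfp42 at 0.64 ± 0.07 and Esrrb at 0.63 ± 0.12, and all 10 were above 0. After the length and GC correction 7 passed, with Klf2 at 0.41, Klf5 at 0.58 and Tfcp2l1 at 0.44 added. The day 0 and day 4 effects of the siRNA come from separate libraries, but the level of Rsl24d1 differed between si-Rsl24d1 and si-CTL cells on day 0 and not on day 4, so day and depletion cannot be told apart here.

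Other genes of the pluripotency network, 32 in all, moved less at day 0 without rescue. Their median difference was -0.21, with 2 called lower, 1 called higher, and 15 lower and 4 higher by adjusted p, where 0.772% and 3.40% of the genes tested were called lower and higher and 16.1% and 14.3% passed lower and higher by adjusted p. The called genes were Mybl2 at -0.89 ± 0.07, a factor of the cell cycle, the adhesion molecule Jam2 at -0.88 ± 0.06 and the signalling ligand Nodal at 1.10 ± 0.05. Of the core factors, Pou5f1 read 10.10, 10.13 and 10.13 in si-CTL and 9.81, 9.80 and 9.82 in si-Rsl24d1 libraries, and Nanog 7.56, 7.53 and 7.49 against 7.15, 7.17 and 7.08. They were lower by less than most members (-0.31 ± 0.04 and -0.40 ± 0.04, limma adjusted p = 1.81e-06 and 5.4e-08), and Sox2 did not differ beyond its error (-0.01 ± 0.05, 95% interval -0.12 to 0.10). Of the formative and post-implantation genes 3 of 12 were called higher, where 3.40% of the genes tested were, and 7 were higher and 2 lower by adjusted p, against 14.3% and 16.1%. Sall2 at 1.35 ± 0.09 and Fgf5, a marker of the primed epiblast, at 0.94 ± 0.12 led these, and Dnmt3b, a DNA methyltransferase of the same list, was at -0.53. Of the other KLF genes 1 of 12 tested was called, Klf12 at -0.97 ± 0.09, with 3 lower and 2 higher by adjusted p, near the 16.1% and 14.3% of the genes tested.

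Over 4 days of RA in si-CTL cells without rescue, the same 32 genes had 12 called lower and 4 called higher, where 8.24% and 6.77% of the genes tested were, with a median of -0.60 against -0.10 over all genes. Gbx2 at -1.48 ± 0.07 and Socs3, a STAT3 target, at -1.35 ± 0.06 were among those that fell, and Sox15 at 2.25 ± 0.05, Dppa3 at 2.05 ± 0.06 and Spp1 at 1.34 ± 0.04 rose most. Pou5f1 fell by 1.10 ± 0.04 and Sox2 by 0.72 ± 0.05, whereas Nanog rose by 0.79 ± 0.04 in these cells (limma adjusted p = 5.23e-13). Of the 12 formative genes 8 were called lower, against the same 8.24%, and 0 higher, with Etv4 at -3.84 ± 0.08 and Dnmt3b at -2.99 ± 0.09.

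Markers of other cell types were read beside these results as sums of TPM. Over the 10 primitive endoderm markers the sums were 13.6 to 17.1 TPM in si-CTL cells against 11.4 to 13.8 TPM in si-Rsl24d1 cells at day 0 without rescue, and 21.6 to 29.2 TPM against 45.4 to 60.8 TPM at day 4. At day 4 without rescue 4 of the 8 tested were called higher in si-Rsl24d1 cells, where 1.45% of the genes tested were, with Lama1 at 1.12 ± 0.13 and Cubn at 1.09 ± 0.15. The 6 fibroblast markers summed to 327 to 347 TPM in si-CTL cells against 552 to 695 TPM in si-Rsl24d1 cells at day 4 without rescue, and the 8 trophectoderm markers to 355 to 389 and 472 to 560 TPM. At day 0 these sums were 176 to 193 against 210 to 212 TPM and 299 to 308 against 339 to 360 TPM. Both sums weigh their highest genes most. Vim was the highest fibroblast marker, and Krt8 and Krt18 the highest trophectoderm markers, at 7.92, 7.35 and 7.64 log2(TPM + 1) in si-CTL cells at day 4. In si-Rsl24d1 cells these read 8.75, 7.77 and 8.05. At day 0 Vim was higher by 0.36, whereas Col1a1 and Col1a2 passed lower at -0.59 and -0.37. Thy1, S100a4 and Postn were below 0 without passing. At day 4 without rescue the 10 neural markers summed to 42.0 to 43.1 TPM in si-CTL and 56.8 to 70.2 TPM in si-Rsl24d1 cells. The 8 mesoderm markers summed to 6.00 to 6.90 and 14.8 to 17.8 TPM, and 4 genes of each of these lists stayed below 1 TPM in every library. Twist1 was the highest mesoderm marker, at 2.27 in si-CTL and 3.78 log2(TPM + 1) in si-Rsl24d1 cells. Meox1 and Kdr also passed higher at 0.43 and 0.36, and T, Tbx6 and Mixl1 did not pass. At day 4 without rescue 2 of 6 fibroblast, 1 of 7 trophectoderm, 1 of 6 neural and 1 of 6 mesoderm markers tested were called higher in si-Rsl24d1 cells. At day 0 without rescue 0, 0, 1 and 1 were, where 3.40% of the genes tested were. By adjusted p alone at day 0, Nes was also higher at 0.48, and Pax6, T, Mixl1 and Meox1 were lower at -0.78, -0.81, -0.31 and -0.30. The mesoderm sums at day 0 without rescue were 16.8 to 18.8 TPM in si-CTL and 12.5 to 16.3 TPM in si-Rsl24d1 cells. The part of other cell types in the values of the members was not tested.

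For each member, the genes whose level followed it most closely over the 24 libraries were listed by Pearson's r, as a description, since the libraries fall into groups by day and siRNA that all genes share. Adap1 (r = 0.988) and the serine hydroxymethyltransferase Shmt2 (0.978) followed Nr0b1, Trim2 (0.987) and Tbc1d9 (0.986) followed Klf5, and Jam2 (0.986) and Lrrc34 (0.982) followed Tcl1. Like Tcl1, Lrrc34 had its lowest group mean in si-Rsl24d1 cells at day 0, 2.91 log2(TPM + 1) against 4.55 in si-CTL cells. For Klf2 these were 2310043M15Rik (0.978) and the glycine decarboxylase Gldc (0.974), for Esrrb Glb1 and the kinase Pim1 (0.968 each), and for Tfcp2l1 Mcm6 (0.961) and Igf2bp3 (0.954). Nr5a2 was followed by Ttc39b (0.954) and Pdha1 (0.950), Zfp42 by Chac1 (0.950) and Nupr1 (0.949), Klf4 by Dppa2 and Atxn2l (0.913 each), and Tbx3, the lowest member, by Ubqln2 (0.905) and 2700081O15Rik (0.901). Chac1, a glutathione-degrading enzyme, spanned a wider range than Zfp42, with group means at day 0 without rescue of 4.65 for si-CTL and 1.74 for si-Rsl24d1.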

How the data were processed

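RNA-seq of CGR8 ESCs was measured in 24 libraries, 3 per group, and samples were grouped by their titles. The authors quantified reads with Salmon and deposited their values on the log2 scale, as log2(TPM + 1), for 54242 gene symbols. The submitters' processing notes name STAR, Salmon and the human build GRCh38, whereas the study's methods name mouse GRCm38. The values hold no counts, so the depth is unknown, and the precision rests on 3 libraries per group. P-values measure the spread between these samples.

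Genes with a mean of at least 0.5 (16447) were fitted with limma 3.58.1 in R 4.3.3 (8 group means, moderated variances with a trend on mean level). Two-sided p were Benjamini-Hochberg adjusted within each of 15 comparisons, and a gene was called at an adjusted p below 0.01 and over 1.8-fold. Interactions used the adjusted p alone. The fit was tested on simulated data. No exact permutation test of 3 against 3 can go below 0.1.

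The correction for length and GC content used natural splines of the longest coding transcript in gencode vM21, found for 82.4% of the genes tested, and was added after the data were seen, as was the sum of Zfp42 and Zfp42-ps1. Other alternatives were adding 0.1 or 2 before the log, dropping the filter or setting it at 1.5, median of ratios scaling, a replicate block, no intensity trend, no fold threshold, only the groups compared, the other control group and leaving out each library.

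The members and lists, written from general knowledge, were chosen with earlier results of these data known. Named genes are the 10 members, Rsl24d1, the 2 genes outside the members most correlated with each member, Pou5f1, Sox2, Nanog, at most 3 called genes in each direction of the other pluripotency list and at most 2 of each other list per comparison. Dnmt3b, Vim, Col1a1, Col1a2, Thy1, S100a4, Postn, Nes, Pax6, T, Mixl1 and Meox1 at day 0 were chosen after their values were seen. So were Vim, Krt8, Krt18, T, Tbx6, Mixl1, Meox1 and Kdr at day 4. One gene that this rule names is not reported here.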

Additional observations from a re-analysis of the deposited data

Results flagged for a closer look

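The difference between si-Rsl24d1 and si-CTL cells itself differed between groups for the members named here, by the interaction test of limma (adjusted p below 0.01). Between day 4 and day 0 without rescue it differed for all 10: 0.40 for Klf2, 0.63 for Nr5a2, 0.84 for Tbx3, 0.85 for Klf4, 1.03 for Zfp42, 1.06 for Tcl1, 1.18 for Tfcp2l1, 1.20 for Klf5, 1.23 for Nr0b1 and 1.24 for Esrrb on the log2 scale. With rescue it differed for Esrrb (0.63), Zfp42 (0.64), Tcl1 (0.70) and Nr0b1 (0.77). Between rescued and unrescued cells at day 0 it differed for Zfp42 (0.46), Tcl1 (0.57) and Nr0b1 (0.59). In each pair the siRNA difference was the lower one at day 0, or without rescue. Groups of 3 libraries are too small for a test of single libraries that stand apart.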

How the results depend on the processing

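Numbers of members called are given for each setting that moved them by over 1.5 times. Without the fold threshold, 9 members were called for the siRNA at day 0, 4 for the siRNA at day 0 with rescue, 3 for the rescue in si-Rsl24d1 cells at day 0 and 3 for the siRNA at day 4, in place of 4, 0, 0 and 0. For the day difference it gave 9 in si-CTL cells, 7 in si-Rsl24d1 cells, and with rescue 7 and 6, in place of 3, 1, 2 and 1. Against si-CTL without rescue, 3 members were called for rescued si-Rsl24d1 cells at day 0. With the length and GC correction the interaction of siRNA with rescue was called for 6 members and that of siRNA with day, with rescue, for 7, and 2 values changed sign and passed: Nr5a2 at 0.21 between rescued and unrescued si-Rsl24d1 cells at day 0, and Nr5a2 at -0.23 for the siRNA at day 4. Leaving out 1 library gave 1 to 3 members called for the day difference in si-CTL cells with rescue, 2 to 4 without rescue, 4 to 5 for the siRNA at day 0 and 2 to 3 for its interaction with rescue, and the same number for all other comparisons. The cause of these changes was not tested.

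Libraries that share a replicate number were not treated as paired. Across groups, their residuals had a mean correlation of -0.0173 (84 pairs, -0.223 to 0.169), against 0.00865 over 168 pairs with different numbers. The second mean largely follows from the first, because residuals cancel within each group. These means pool all pairs of groups, so they cannot tell whether libraries were paired within some groups. With the replicate block the number of members called was 4 for the siRNA at day 0, 10 for its interaction with day and 3 for that with rescue, as without it, and the adjusted p of Klf5 at day 4 was 0.0112 in place of 0.00667. Over all genes, the siRNA at day 0 gave 687 calls, and 1224 with 0.1 added to the TPM. At day 4 it gave 268, and 601 with 0.1 added, 158 with 2 added, 166 after median of ratios scaling and 113 after the length and GC correction. After median of ratios scaling the share of calls that were higher went from 10.9% to 50% for the rescue in si-Rsl24d1 cells at day 0, from 88.8% to 71.1% for the siRNA at day 4, from 71.4% to 54.9% for the interaction of siRNA with day, from 31.4% to 47.7% for the same with rescue, from 45.1% to 58.8% for the day difference in si-CTL cells and from 69.1% to 56% in the same cells with rescue.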
